A study of Mus musculus with 6 samples.

Results

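Apoptosis-inducing factor (AIF) and 7 proteins that it works with or resembles were followed in olfactory epithelium of the Harlequin mouse, in which the AIF gene itself is mutated. The genes were Aifm1 (AIF, formerly Pdcd8), its paralogues Aifm2 and Aifm3, and the import partner Chchd4. The others, Endog, Parp1, Parp2 and Ppia, were taken as partners of AIF in cell death. A probe set, the group of short probes that reports 1 transcript on the array, was taken where the platform annotation named exactly 1 of these 8 genes. This gave 14 probe sets for 7 genes, out of 45037 probe sets and 18193 genes on the array. Ppia had 0 probe sets of its own, because the 1 probe set that lists it also lists Gm9234, and it has no value here. The samples were epithelium microdissected from 3 male Hq/Y mutants, strain B6CBACAw-J/A-Pdcd8-Hq/J, and from 3 male +/Y littermate controls, strain B6CBACa. All 6 mice were 6 months old and, per the labels, had arrived at an age of 13 weeks. Each was hybridised to its own Affymetrix array, and the labels call the arrays of a genotype biological replicates. A male has a single X chromosome, so the mutant mice carry no second copy of Aifm1. The strain field differs between the groups although the labels call the controls littermates. Any difference in strain background that remains cannot be told apart from genotype. Probes cannot tell less RNA per cell from fewer cells of a type, which holds for each value below.

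AIF is a flavoprotein of the mitochondrial intermembrane space that oxidises NADH. In a healthy cell it binds CHCHD4, the receptor of the disulfide relay that traps small cysteine-rich proteins in that space, and it is needed for normal amounts of respiratory complex I. When DNA damage overactivates PARP1, which builds poly(ADP-ribose) (PAR) from NAD, AIF leaves the mitochondria for the nucleus, where it takes part in DNA cleavage. That form of death is called parthanatos. The Harlequin allele is a proviral insertion in an intron of Aifm1 that lowers its transcript, and the mutant is known for loss of cerebellar and retinal neurons with age. The study asked which changes in gene expression accompany degeneration under oxidative stress in this epithelium.

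The mature olfactory sensory neurons that should dominate this tissue were well represented, with Omp, the classical marker, at 15891.8 to 18821.7 over the 6 arrays. The sustentacular marker Cyp2g1 lay at 16585.7 to 18072.4. The median probe set signal was 109.6 to 113.3 on the Harlequin arrays and 107.9 to 119.7 on the control arrays, and Gapdh signal at its 3' end over that at its 5' end, a sign of RNA integrity, was 0.729 to 0.79 and 0.74 to 0.846. Precision is limited by there being 3 arrays in each group.

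Of the 7 measured genes 1 changed. Aifm1 fell in every mutant to a small share of the control signal, and the other 6 genes did not pass the test. A gene was called changed at an adjusted p under 0.05 in limma, a linear model fitted to all 13219 genes above a signal of 61.1, and 0.0303% of those genes were called. Parp2 was the other gene whose groups did not overlap, and its 3 mutants were higher. Genes without overlap were 10.4% of all genes tested. The median log2 difference was -0.0063 over the 7 genes and 5.2e-05 over all genes tested. At probe set level 1 of 14 was called and 13 were not, against 0.0133% of all 45037 probe sets.

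**Figure D1:**
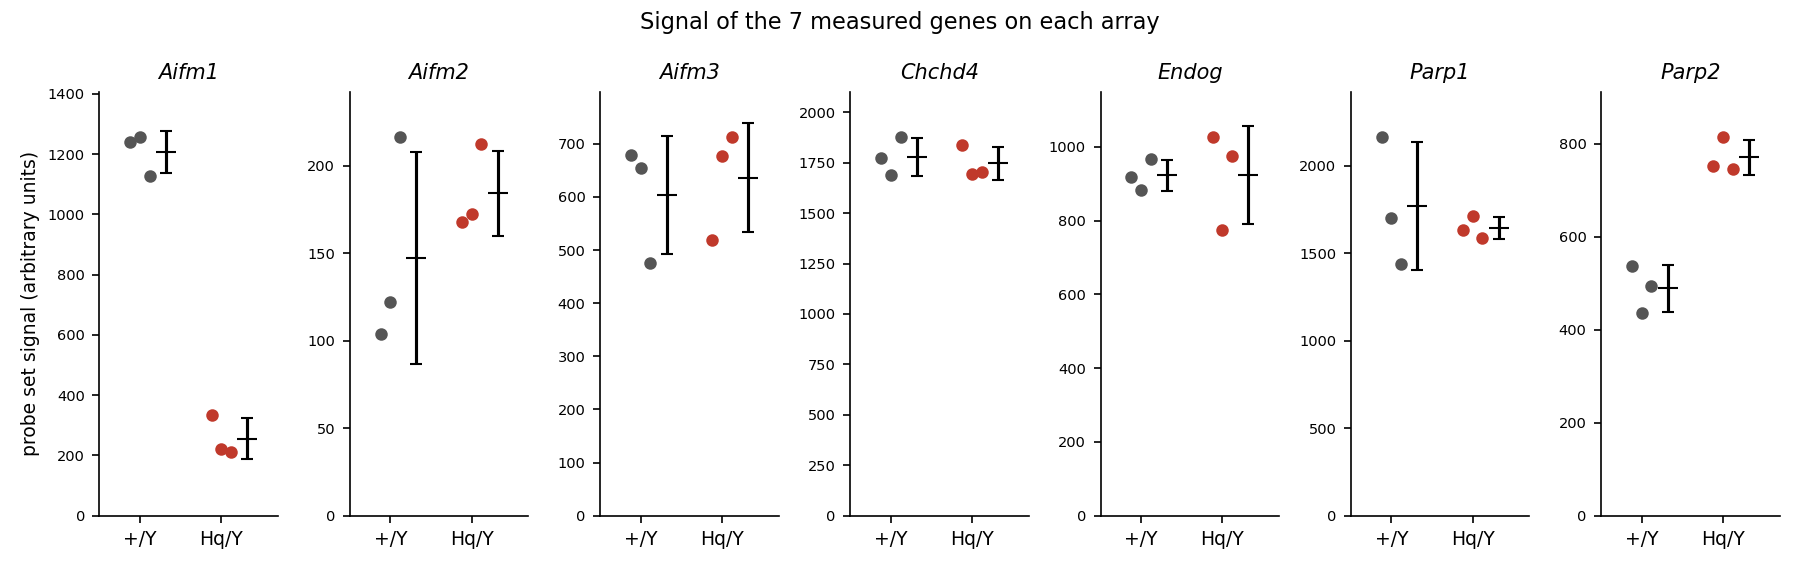
Probe set signal (arbitrary units, linear axes from 0) of the 7 measured genes on each array, at the probe set with the highest mean. Points are single mice, +/Y controls in grey and Hq/Y mutants in red, and bars show mean and SD over 3 mice. Aifm1 is at 211.2 to 335.4 in mutants and 1128.2 to 1255.6 in controls, Parp2 at 745.5 to 814.2 and 436.3 to 537.6, and the other 5 genes overlap.

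The promoters of Aifm1 and Parp2, from 250 bases before the transcription start to 50 after it, are shown because these were the members whose groups lay apart. The sequences come from RefSeq (GRCm38.p6), in which all 8 members matched, and capitals mark the motifs searched on both strands.
Aifm1 (chrX:48513514-48513813, minus strand): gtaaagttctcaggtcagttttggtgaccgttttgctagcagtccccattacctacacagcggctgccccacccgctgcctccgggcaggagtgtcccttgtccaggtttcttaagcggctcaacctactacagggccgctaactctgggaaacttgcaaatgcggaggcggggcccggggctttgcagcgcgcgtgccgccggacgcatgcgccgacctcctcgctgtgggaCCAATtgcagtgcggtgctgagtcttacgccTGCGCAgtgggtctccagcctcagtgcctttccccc
Parp2 (chr14:50807666-50807965, plus strand): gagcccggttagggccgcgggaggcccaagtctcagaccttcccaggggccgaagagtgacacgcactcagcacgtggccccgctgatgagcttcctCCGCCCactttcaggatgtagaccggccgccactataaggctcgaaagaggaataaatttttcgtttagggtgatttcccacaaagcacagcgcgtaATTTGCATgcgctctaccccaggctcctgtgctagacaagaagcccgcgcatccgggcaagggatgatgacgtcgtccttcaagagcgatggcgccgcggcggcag
The motifs searched were the CCAAT box CCAAT, the GC box GGGCGG, the core TGCGCA of the NRF1 site, and the octamer ATTTGCAT. The Aifm1 window held a CCAAT box starting 17 bases before the start and TGCGCA 14 bases after it. TGCGCA occurs in 7.76% of 32851 promoter windows of this length and CCAAT in 37.4%. NRF1 is a regulator of many nuclear genes of mitochondrial proteins. The Parp2 window held a GC box on the opposite strand, 153 bases before the start, and an octamer 56 bases before it. GC boxes occur in 35.7% of the windows and octamers in 1.74%. The Parp2 window also covers 106 bases of the neighbouring gene Rpph1, the RNA subunit of RNase P, with which Parp2 is known to share its promoter. These matches describe the letters only, and 6 of the 8 members, Aifm1 not among them, held a GC box.

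Aifm1 was measured by a single probe set. Its signal was 335.4, 221.1 and 211.2 in the mutants and 1239.9, 1255.6 and 1128.2 in the controls. The groups lay far apart, and Harlequin replicate 1 stood above the other mutants. The spread relative to the mean was wider in mutants, with a coefficient of variation of 27.0% against 5.75% in controls. Harlequin retained 21.2% of the control signal (255.9 ± 69.0 against 1208 ± 69.5, SD, n = 3). The log2 fold change was -2.20 (SE 0.18, 95% interval -2.60 to -1.79), or 0.218-fold (0.164 to 0.289), with a limma adjusted p of 0.0158. It had the smallest p of all genes tested. The lowest mutant signal was still above 61.1, the mean a gene needed to be tested. By exact permutation of the arrays (two-sided) p was 0.1, below which 3 against 3 arrays cannot go. Leaving out control replicate 1, 2 or 3 ended the limma call (adjusted p = 0.097, 0.0616 and 0.068), as did a variance model with no intensity trend (0.0887), while the log2 difference stayed between -2.40 and -2.01 under all alternatives.

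The AIF paralogues are flavoproteins as well. Aifm2, also called FSP1, reduces coenzyme Q and protects membrane lipids from peroxidation and cells from ferroptosis. At its brightest probe set Aifm2 gave 167.5, 172.6 and 212.2 in mutants and 103.8, 121.8 and 216.1 in controls. The mutants lay close together, whereas control replicate 3 was above the highest mutant and the other controls were lower than every mutant. The log2 difference was 0.35 (95% interval -0.25 to 0.95, limma adjusted p = 0.981). It was 0.16 without control replicate 1, 0.63 without control replicate 3 and 0.18 as the mean over probe sets, and passed in none of these. Its other probe sets differed by 0.20 and -0.0026, and the former, at 27.9 to 79.9 over the 6 arrays, was too dim to pass the filter. The interval of Aifm2 therefore takes in folds from 0.84 to 1.93.

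Aifm3, a paralogue with an added iron-sulfur domain, gave 519.2, 678.1 and 712.2 in mutants and 679.8, 655.5 and 476.2 in controls. Each genotype had 1 low mouse, Harlequin replicate 1 and control replicate 3, and the groups overlapped. The log2 difference was 0.078 (95% interval -0.33 to 0.49, limma adjusted p = 0.988). The second Aifm3 probe set lay the other way, at -0.22 (95% interval -0.81 to 0.37), so the direction depends on the probe set. Within an array, Aifm1 was compared with each paralogue, a comparison chosen after the values were seen. The log2 signal of Aifm1 minus that of Aifm2 was 0.94, 0.33 and -0.0063 in mutants and 3.39, 3.21 and 2.30 in controls. That of Aifm1 minus Aifm3 was -0.61, -1.55 and -1.68 against 0.85, 0.92 and 1.22. The mutants lay below the controls in both, by -2.55 and -2.28 on average. As Aifm1 alone already separated the groups, these differences restate its fall beside the paralogues.

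Chchd4, the import partner that AIF binds, was the least variable of the 7 genes, with a coefficient of variation of 4.54% over the 6 arrays. It gave 1838.5, 1694.6 and 1706.4 in mutants and 1775.8, 1688.3 and 1875.6 in controls, and the groups overlapped. The log2 difference was -0.027 (SE 0.091, limma adjusted p = 0.995). Its 95% interval, 0.85-fold to 1.13-fold, lies well above the 0.218-fold of Aifm1. The wider disulfide relay comprised 19 tested genes of 21 listed, among them the oxidase Gfer, small TIM chaperones, copper chaperones and the complex I subunits Ndufs5, Ndufb7 and Ndufa8. Of these 0 were called by limma in either direction and 1 had an unadjusted p under 0.05, which 4.58% of all genes tested had. On average 7 were higher and 12 lower, with a median log2 difference of -0.03. Cmc2, a cytochrome oxidase assembly factor, was at 545.2, 625.7 and 507.9 in mutants and 400.4, 496.1 and 421.0 in controls (log2 difference 0.34, adjusted p = 0.981), and its probe sets ranged from -0.014 to 0.34. The copper chaperone Cox17 differed by -0.13 and Ndufa8 by 0.15, both with overlapping groups.

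Endog is a mitochondrial nuclease that reaches the nucleus in dying cells. It gave 1025.7, 774.2 and 974.9 in mutants and 919.4, 882.9 and 966.8 in controls, so the mutants spread around the controls on both sides. The log2 difference was -0.0063 (95% interval -0.30 to 0.29, limma adjusted p = 0.998), and its second probe set gave -0.12 (-0.37 to 0.12). A list of 12 other mitochondrial death proteins, their regulators and nucleases had 10 tested genes, with 0 called by limma and 1 at an unadjusted p under 0.05. Of the 10, 5 were higher and 5 lower on average, with a median of -0.017. The exception was the lysosomal nuclease Dnase2a, at 476.2, 561.3 and 463.9 in mutants and 730.1, 794.0 and 817.4 in controls. All 3 mutants were lower, but the log2 difference of -0.63 (95% interval -0.91 to -0.35) missed the threshold over all genes (limma adjusted p = 0.75). The value of Dnase2a rests on a single probe set, which has the suffix _x_at. Cytochrome c, Cycs, the activator of the apoptosome, differed by -0.16 with overlapping groups. The caspase inhibitor Xiap differed by -0.14 at its brightest probe set without overlap and by as much as 0.40 at another.

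**Figure D2:**
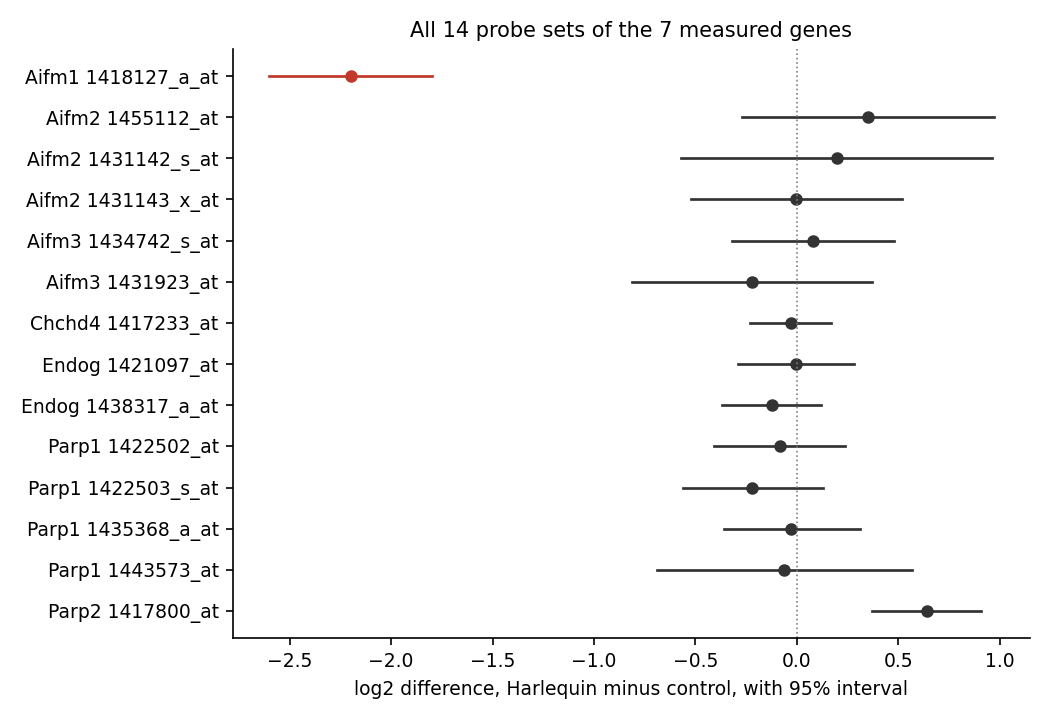
Log2 difference, Harlequin minus control, with 95% interval for all 14 probe sets of the 7 measured genes, from a limma fit to all 45037 probe sets. The probe set in red, that of Aifm1 at -2.20, is the one called; the others lie between -0.22 and 0.64, and of these the interval of Parp2 alone leaves out 0.

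PARP1 and PARP2 are the nuclear enzymes that attach PAR chains at DNA breaks, and PARP1 makes most of the polymer. Parp1 had 4 probe sets. At the brightest it gave 1634.9, 1712.5 and 1588.6 in mutants and 2162.9, 1701.9 and 1441.8 in controls. The mutants lay within the range of the controls, which varied more (coefficient of variation 20.6% against 3.81%). The log2 difference was -0.084 (95% interval -0.42 to 0.25, limma adjusted p = 0.986). The other 3 probe sets lay at -0.22, -0.027 and -0.065, so all 4 were on the same side of 0 with intervals that span it. The last of them was too dim for the filter.

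Parp2 gave 753.6, 814.2 and 745.5 in mutants and 537.6, 436.3 and 493.5 in controls. Every mutant was above every control, and the gap between the groups was larger than the range within either. The mean signal was 771.1 ± 37.5 in mutants and 489.1 ± 50.8 in controls (SD, n = 3), and the log2 difference was 0.64 (SE 0.12), or 1.56-fold with a 95% interval of 1.29 to 1.89. Parp2 missed the threshold over all genes (limma adjusted p = 0.75, with the 11th smallest unadjusted p at 0.000639). Among all genes tested 91, or 0.688%, had an upward difference at least as large. The difference stayed between 0.57 and 0.71 with any 1 array left out. It rests on a single probe set. Parp2 was also set against Parp1 within each array, a pair chosen after the groups of Parp2 were seen to lie apart, so it adds no independent evidence. The log2 signal of Parp2 minus that of Parp1 was -1.10, -1.06 and -1.08 in mutants and -1.98, -1.93 and -1.52 in controls. The mutants were nearly identical and all above the controls, by 0.73 on average.

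Genes that make, read or remove PAR or act beside AIF in parthanatos were taken as a list of 21, of which 20 were tested. None was called by limma in either direction, and 0 had an unadjusted p under 0.05. On average 11 were higher and 9 lower, with a median log2 difference of 0.062 and a range of -0.14 to 0.30. H2ax, the histone variant phosphorylated at DNA breaks, was at 1301.9, 1495.2 and 1221.0 in mutants and 1237.1, 948.1 and 1083.2 in controls. These groups overlapped narrowly (log2 difference 0.30, limma adjusted p = 0.981). Tnks2, the PAR polymerase tankyrase 2, differed by 0.17 without overlap, but its probe sets ranged from -0.13 to 0.17. The protease calpain 1, Capn1, differed by 0.27 without overlap, and its probe sets ranged from -0.012 to 0.27. Parg, which degrades PAR, differed by 0.19 without overlap at its only probe set (limma adjusted p = 0.981). Mif, a nuclease partner of AIF, differed by 0.054 with overlapping groups. In this list 4 of 20 genes did not overlap, not all in the same direction. Over the 5 lists around AIF these were 11 of 65 genes, or 16.9%, against 10.4% of all genes tested.

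**Figure D3:**
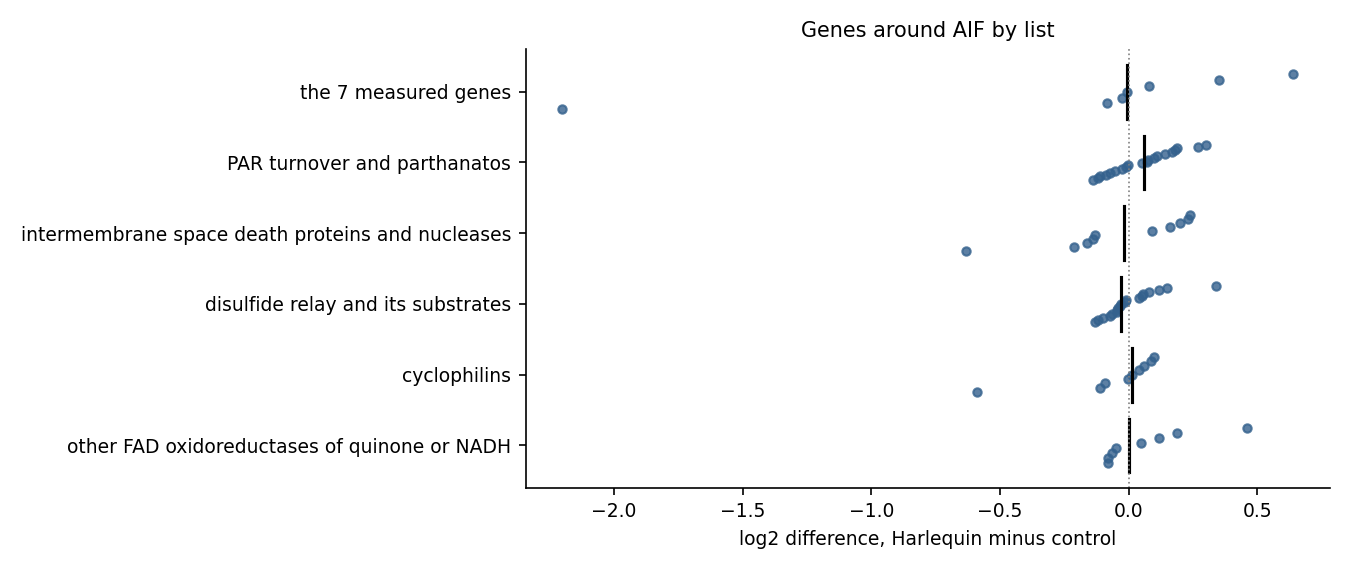
Log2 difference, Harlequin minus control, for the 7 measured genes and for the tested genes of 5 lists around AIF, at the probe set with the highest mean. Points are genes, spread vertically in order of value, and black bars are medians. The list medians lie between -0.03 and 0.062, and Aifm1 at -2.20 lies far outside every other gene shown, the next lowest being Dnase2a at -0.63.

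Among markers of other cell types limma called 0, and the sums of some lists lay apart between the genotypes. The summed signal of 4 erythrocyte markers was 2849.1 to 3722.8 in mutants and 697.7 to 1949.4 in controls, with all 3 tested members higher. The remaining marker, Hba-a1, was too dim to be tested and went the other way, lower on average in mutants with overlapping groups. None of the 4 was at 0, although Hba-a1 went down to 1.6. The sums of 5 macrophage markers were barely apart, at 2891.8 to 3294.8 against 2160.3 to 2885.2. Of the 5, 4 were higher on average, and the groups of Cd68, C1qa and Tyrobp overlapped. The sum of 2 glial markers was 1579.5 to 1624.2 against 2053.4 to 2606.2, with both lower. Cycling cell markers were higher on average in 4 of 4 but their sums overlapped, at 1647.7 to 1950.7 and 1156.4 to 1705.0. The same held for neutrophil markers, higher in 5 of 5, with sums of 29636.6 to 47186.6 and 12619.2 to 37843.8. The part of these cells in the values of Aifm1, Parp2 and Dnase2a was not tested. Mature neuron markers summed to 75258.9 to 78870.7 in mutants and 74002.0 to 80093.5 in controls.

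Because the strain field differs between the groups, the 5 tested genes on either side of Aifm1 on the X chromosome were examined. Of these 10 neighbours limma called 0 (0.246% of X chromosome genes tested, which is Aifm1 alone), and 1 had an unadjusted p under 0.05. On average 5 were higher and 5 lower, with log2 differences from -0.40 to 0.46. The groups did not overlap for 2 of them, where such genes made up 14.0% of the 407 X chromosome genes tested. Zfp280c, a zinc finger gene, gave 588.4, 536.7 and 657.8 in mutants and 412.5, 419.2 and 447.7 in controls (log2 difference 0.46, limma adjusted p = 0.981). Apln, which encodes the peptide hormone apelin, gave 129.5, 194.6 and 207.7 in mutants and 222.8, 245.8 and 234.6 in controls (-0.40, limma adjusted p = 0.981). The genes next to Aifm1 on each side, the corepressor Bcorl1 and the small GTPase Rab33a, differed by 0.072 and -0.0032 with overlapping groups. A mitochondrial carrier among the neighbours, Slc25a14, differed by 0.17.

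**Figure D4:**
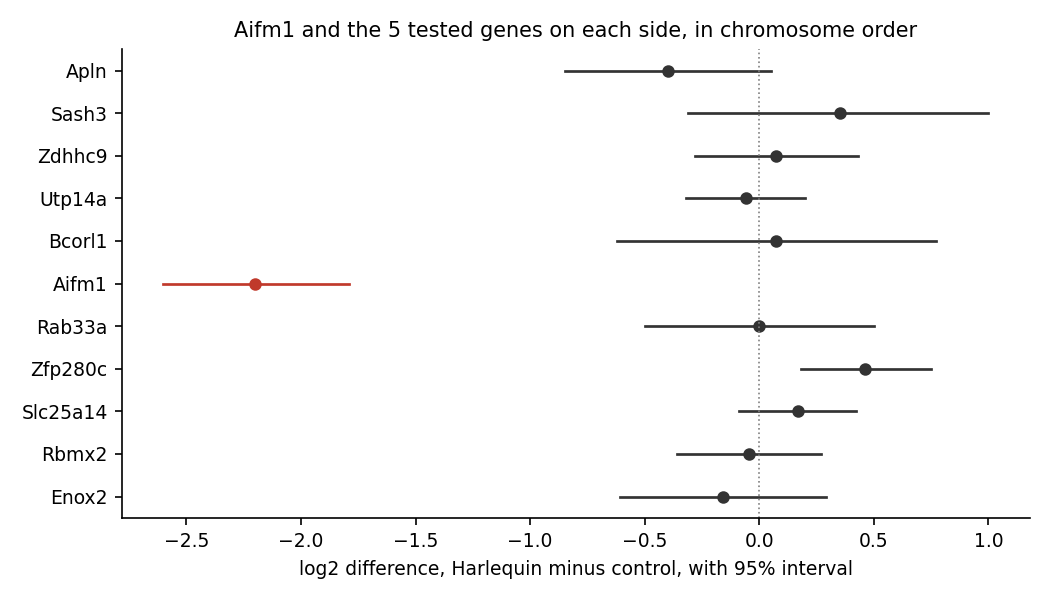
Log2 difference, Harlequin minus control, with 95% interval for Aifm1 (red) and the 5 tested genes on each side, in chromosome order from top to bottom. Aifm1 lies at -2.20, and the 10 neighbours lie between -0.40 and 0.46.

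The genes most like Aifm1 were found by the root mean square distance between log2 deviations from each gene's own mean over the 6 arrays. The nearest were Cyp3a13, a cytochrome P450 (0.41), Azgp1, a secreted glycoprotein (0.46), and the receptor Mrgprg (0.55), against a median of 1.13 over all genes tested. All 3 were lower in every mutant, as the measure requires. Azgp1 was called (log2 difference -1.45, limma adjusted p = 0.0243). Cyp3a13 (-1.62, adjusted p = 0.0765) and Mrgprg (-1.34, adjusted p = 0.981) were not. For these genes too, strain background cannot be told apart from genotype, and any link to Aifm1 was not tested. Mrgprg was dim, at 12.4 to 132.7. Of the other members, Parp1 was nearest to Aifm1 at 1.08 and Parp2 farthest at 1.44.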

How the data were processed

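RNA of microdissected olfactory epithelium was hybridised to 1 Affymetrix array per mouse after labelling from 3 µg of total RNA, per the labels' protocols. The deposited values are linear intensities of 45101 probe sets between 0.1 and 31786.1, and the mean after trimming 2% at each end is 500.0 on every array. The software that made them is not given in the sources used here. The 64 control probe sets were left out. Each gene was represented by its probe set with the highest mean log2(value + 16). Genes above the 40th percentile of that mean, a signal of 61.1, were tested, 13219 in all. The 2 genotypes, with 3 arrays each, were compared by limma 3.58.1 under R 4.3.3 with an intensity trend, two-sided, adjusted by the Benjamini-Hochberg method. Differences are on the log2(value + 16) scale, which understates changes of dim genes, and intervals cover 95%. All 14 member probe sets were also read from a fit to 45037 probe sets without a filter. Pathway genes were described by counts and medians, without a set test.

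Alternatives were pseudocounts of 1 and 64, no filter, the 60th percentile, quantile normalization, median scaling, no trend, robust moderation, array weights, the mean over probe sets, probe sets with suffixes _s_at and _x_at left out, a replicate block, and each array left out. The members and lists were chosen with earlier results of these data known. By rule the text names each member, up to 3 genes of smallest p per list, the neighbours of Aifm1, the 3 genes most like it, and tissue markers. Parg, Mif, Gfer, Ndufs5, Ndufb7 and Rpph1 were named after their values were seen. On 10 simulated data sets of 13219 genes for this comparison, 72.2% of genes changed by a log2 of 1 were called and 5.31% of all calls were false. Each set held 200 changed genes, with log2 changes of 1, 2 or 3 in size, in independent noise. More changed genes make the adjusted threshold easier to reach. The data themselves gave 4 called genes, so the 72.2% does not carry over to the members. Names and promoters came from RefSeq tables (GRCm38.p6), and 18032 of 18194 gene identifiers matched.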

Additional observations from a re-analysis of the deposited data

How the results depend on the processing

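Every alternative kept Aifm1 lower, with log2 differences of -2.27 to -2.01 across 12 settings and -2.40 to -2.08 with 1 array left out. Its limma call was lost without an intensity trend (log2 difference -2.20, adjusted p = 0.0887) and with the replicate block (-2.20, adjusted p = 0.0605). The replicate numbers did not pair the mice: deviations of same-numbered mice correlated at -0.237, -0.0298 and 0.0582. In both settings limma called 0 member genes and 0 member probe sets, with 2 of each at an unadjusted p under 0.05. There it called 0 of all 13219 genes, with 643 and 541 at an unadjusted p under 0.05. With 1 array left out, member genes called numbered 0 to 1 and member probe sets 0 to 1, where 0 to 3 of all genes were called. The probe set call was lost without control replicate 1, 2 or 3 and without Harlequin replicate 2, and the gene call without control replicate 1, 2 or 3. Parp2 ranged from 0.60 to 0.67 across settings and did not pass in any of them (adjusted p of 0.583 or more). Members near 0 changed sign. Aifm3 was at -0.071 as the mean over probe sets and -0.22 without _s_at and _x_at probe sets. With median scaling, which shifts the median of all genes by 0.03, Chchd4 was at 0.0036 and Endog at 0.024. With 1 array left out Aifm2 ranged from 0.16 to 0.63, Aifm3 from -0.08 to 0.21, Chchd4 from -0.064 to 0.011, Endog from -0.085 to 0.11 and Parp1 from -0.22 to 0.069. The causes of these changes were not tested. Counts of pathway genes and of X chromosome neighbours called were 0 under each alternative run. Member genes without overlap numbered 2 in each setting on 6 arrays and 2 to 3 with 1 array left out.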

Other observations

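Cyclophilins, the prolyl isomerase family of Ppia, were represented by 9 tested genes of 11 listed. Of these limma called 0, and 1 had an unadjusted p under 0.05, with 5 higher and 4 lower on average and a median log2 difference of 0.014. Ppic, a cyclophilin of the secretory pathway, was at 958.1, 432.2 and 559.3 in mutants and 857.4, 1050.0 and 912.7 in controls. Harlequin replicate 1 lay among the controls and the other mutants below them (log2 difference -0.59, limma adjusted p = 0.981). The summed signal of 4 fibroblast markers, all lower on average in mutants, was 4853.0 to 11334.4 in mutants and 7597.1 to 14412.0 in controls, and its part in the value of Ppic was not tested. Ppif, the mitochondrial cyclophilin D of the permeability transition pore, differed by -0.11 (95% interval -0.44 to 0.21).

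A list drawn up for other flavin enzymes of quinone or NADH metabolism had 8 tested genes. Of these limma called 0, and 0 had an unadjusted p under 0.05, with 4 higher and 4 lower on average. The 8 include Coq8a, which is not a flavin enzyme and differed by 0.12. Thioredoxin reductase 1, Txnrd1, was at 4240.1, 4321.5 and 4481.7 in mutants and 4157.3, 3422.5 and 3919.1 in controls. All 3 mutants were higher, by a log2 difference of 0.19 (95% interval -0.024 to 0.39). Sqor, which oxidises sulfide, differed by 0.46 (-0.22 to 1.15), and its probe sets ranged from -0.31 to 0.46. Control replicate 1 was its lowest array at 832.7, and the other controls, at 1961.4 and 1636.5, lay inside the mutant range of 1576.0 to 2454.2. The cytochrome b5 reductase Cyb5r3 differed by -0.047 at its brightest probe set and by as much as 0.27 at another.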
